A study of Arabidopsis thaliana with 24 samples.

Results

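The genes described here are the nuclear genes that the deposited annotation places in the MapMan bins of the photosynthetic light reactions, 106 of the 27655 genes in the table. MapMan is a plant ontology that sorts genes by process, and no row of a chloroplast or mitochondrial gene carried one of these bins. The sub-bins give 31 genes for photosystem II subunits, 15 for the photosystem II antenna (LHC-II), 14 for photosystem I subunits, 8 for the photosystem I antenna (LHC-I), 3 for the cytochrome b6/f complex, 14 for other electron carriers, 6 for the ATP synthase and 12 for the NADH dehydrogenase-like complex and cyclic electron flow, while 3 kinases or kinase-like genes stand apart. The annotation is wider than its names, since several PnsL genes binned with photosystem II encode lumenal subunits of the NADH dehydrogenase-like complex.

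RNA-seq was carried out on rosettes of Arabidopsis thaliana Col-0, a wild-type laboratory accession, in 8 groups of 3 biological replicates. The question was how single stresses and their combinations change transcripts. All plants grew on soil in long days, were transplanted at 2 weeks and treated 14 days later, and all were sampled at midday. The salt group was watered with 150 mM NaCl, the mannitol group with 200 mM mannitol (an osmotic agent) and the salt plus mannitol group with both in a mixture, in each case 16 h before sampling. The heat group spent the last 4 h in a separate cabinet at 35 °C, while unheated groups stayed at 22 °C. Salt plus heat, mannitol plus heat and all 3 stresses joined the corresponding watering to those last 4 h at 35 °C. No watering was recorded for the control or heat groups, so in comparisons with either of them an effect of watering cannot be told apart from that of salt or mannitol. The cabinet likewise cannot be told apart from the temperature. Whether each replicate came from a single plant or from several is not in the labels, and the p-values therefore reflect the differences among these libraries, which may be technical.

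In the light reactions, photosystem II splits water and passes electrons through plastoquinone, the cytochrome b6/f complex and plastocyanin to photosystem I, which reduces ferredoxin. Ferredoxin-NADP reductase (FNR) then makes NADPH, and the proton gradient built up on the way drives the ATP synthase. Chlorophyll-binding antenna proteins, LHCB around photosystem II and LHCA around photosystem I, collect the light. Electrons can also return from ferredoxin to plastoquinone, either through PGR5 and PGRL1 or through the NADH dehydrogenase-like complex, and such cyclic flow adds to the proton gradient without making NADPH. The core reaction-centre proteins are encoded in the chloroplast, whereas the antenna and most small subunits are encoded in the nucleus and imported.

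Libraries held 12.5 to 19.5 M reads on genes. TPM (transcripts per M, a level corrected for transcript length) was used for levels, and log2 fold changes with their standard errors (SE) came from edgeR. Genes were called where the p adjusted by Benjamini and Hochberg over all 20027 genes tested was below 0.05. Chloroplast and mitochondrial rows held 0.0240% to 0.690% of reads, and 4 libraries exceeded 1.5 times the median share: salt replicate 1, mannitol replicate 2, salt plus mannitol replicate 2 and mannitol plus heat replicate 2. Markers of flowers summed to at most 0.506 TPM in any library. The summed level of the mesophyll genes RBCS1A and CA1 ran from 23857 to 27557 TPM in control and from 14640 to 15691 TPM in salt. Under all 3 stresses it ran from 8152 to 9318 TPM, and was thus lower there, as were most of the genes described here. RBCS1A made up most of this sum and stood at 24194 ± 1562 TPM in control and 10779 ± 676 TPM in heat. CA1 stood at 1512 ± 297 TPM in control and 1451 ± 187 TPM in heat. SUC2, a marker of companion cells, lay between 97.1 and 109.5 TPM in control, between 48.7 and 54.7 TPM in heat and between 58.6 and 69.9 TPM under all 3 stresses. The 2 guard cell markers summed to 19.0 to 20.8 TPM in control, 10.9 to 13.1 TPM in salt plus mannitol and 10.8 to 13.7 TPM under all 3 stresses. The epidermis marker lay between 24.2 and 28.8 TPM in control, 17.2 and 23.9 TPM in heat and 17.8 and 20.4 TPM under all 3 stresses. The range of the shoot meristem list overlapped control in every treatment group, and that of the root list did so in the heated groups. The root list summed to 128.7 to 179.6 TPM in control and lay lower, without overlap, in the unheated stress groups. It ran from 89.98 to 121.8 TPM in salt, 113.3 to 119.7 TPM in mannitol and 83.24 to 123.4 TPM in salt plus mannitol. PYK10, at a mean of 151.7 TPM in control, made up nearly all of the root sum. The part of these cell types in the results was not tested. In bulk rosettes, fewer cells of a type and less RNA per cell cannot be told apart.

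In unstressed rosettes these were among the most abundant transcripts of the plant. Of the 10 most abundant genes in control, 7 were members, as were 35 of the 50 most abundant. A mean of at least 1000 TPM in control was reached by 48 members and a mean under 5 TPM by 5. The level per length was highest for CAB1 (AT1G29930), among the 5 genes for the major antenna protein LHCB1, at 22927, 24427 and 26173 TPM in the control libraries, mean 24509 ± 1625 (SD, n = 3). It was followed by LHB1B2 (AT2G34420), another LHCB1 gene, at 11484 ± 640.4 TPM. LHCA1, an antenna protein of photosystem I, reached 9488 ± 839 TPM and PSBR, a small photosystem II subunit, 8924 ± 291 TPM, 2 means closer than their spread. DRT112, the major plastocyanin PETE2, stood at 5399.7 ± 503 TPM and the major leaf ferredoxin FED A at 3512 ± 218 TPM. Genes of the NADH dehydrogenase-like complex and of cyclic flow were far lower, with PGR5 highest of them over all libraries. At the other end AT5G28450, a putative LHC-I gene, lay between 0.0944 and 1.05 TPM in all 24 libraries and was the 1 member that did not pass the filter on low counts, so 105 of the 106 members were tested.

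The members together held 20.8% ± 0.854 of reads in control (SD, n = 3), 19.3% ± 0.475 in salt, 18.2% ± 1.81 in mannitol and 16.5% ± 0.180 in salt plus mannitol. In heat the share was 16.6% ± 0.270. Salt plus heat gave 16.4% ± 0.556, mannitol plus heat 14.9% ± 0.408 and all 3 stresses 14.0% ± 0.645. Control libraries lay between 19.9% and 21.6% and libraries under all 3 stresses between 13.5% and 14.7%, with no overlap. The mannitol libraries were spread the widest, at 20.1%, 18.1% and 16.5%, with replicate 3 the lowest.

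Role groups lost unequal parts of their summed level. Under all 3 stresses LHC-II stood at 52.6% of its control mean, photosystem I subunits at 58.7%, the ATP synthase at 59.4%, photosystem II subunits at 68.2%, LHC-I at 70.8% and cytochrome b6/f at 73.5%. The other electron carriers stood at 76.1% and the genes of the NADH dehydrogenase-like complex and cyclic flow at 92.5%. In heat alone the same order held only in part: LHC-II was at 67.8% and the ATP synthase at 68.8%, while the other electron carriers were at 104.8%. Salt plus mannitol without heat brought these carriers to 66.7%, the lowest of the role groups in those plants. A sum in TPM is set by its most abundant genes, so the gene counts below describe a different thing. The deposited TPM of all genes summed to 1.03 to 1.06 M in control libraries and to 0.936 to 0.988 M under all 3 stresses. The percentages were not rescaled for this, so part of each fall under salt plus mannitol or all 3 stresses lies in that scale.

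**Figure D1:**
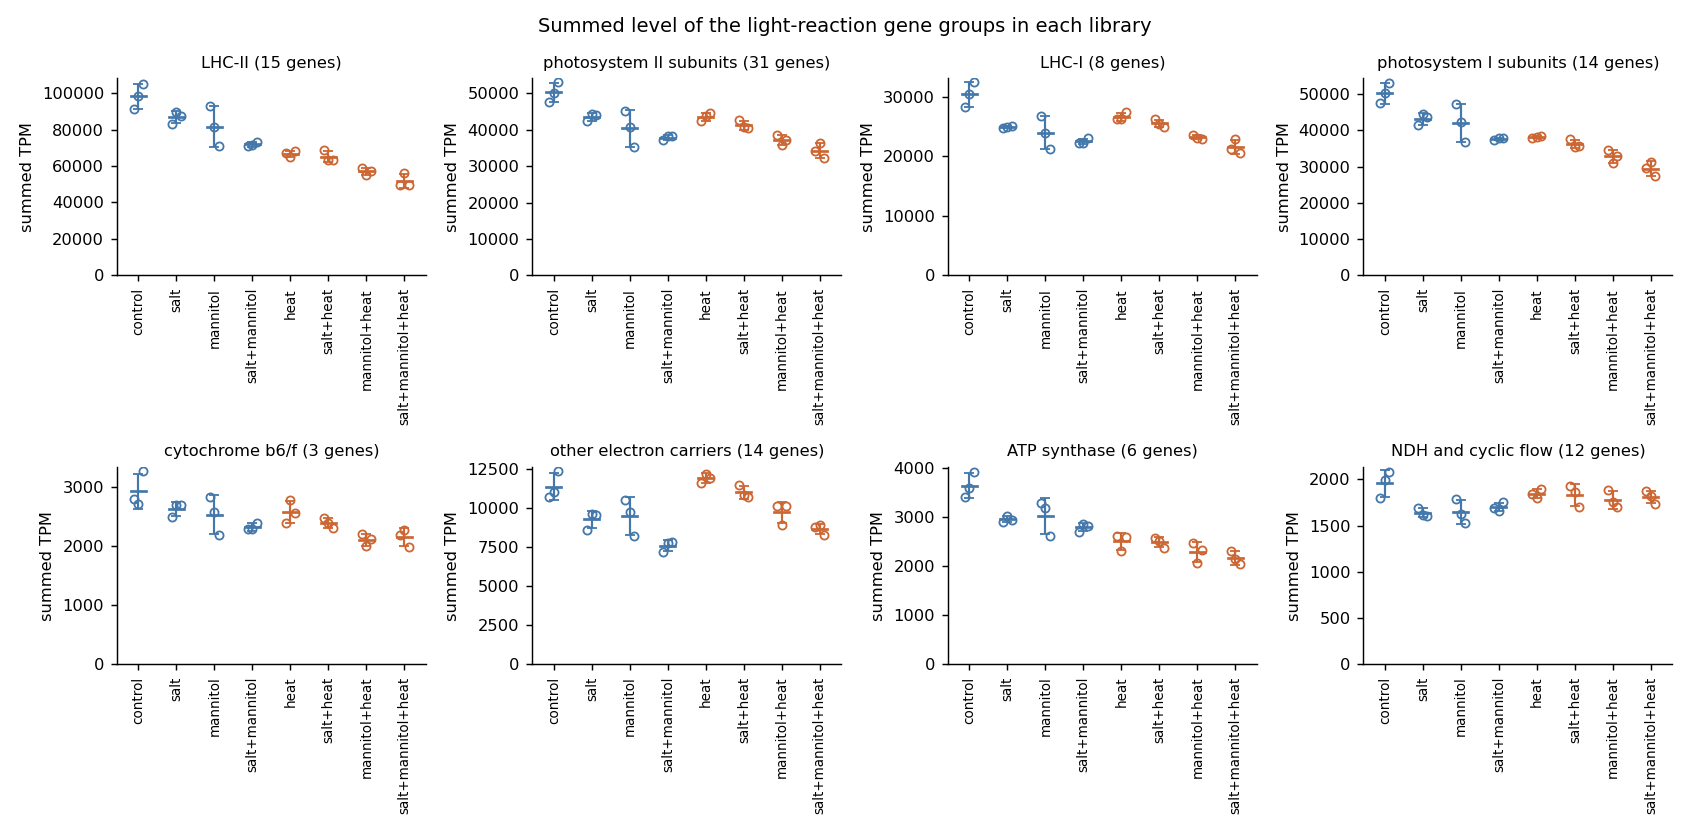
Summed TPM (vertical axis) of 8 role groups of nuclear light-reaction genes in each library of the 8 treatment groups (horizontal axis), blue at 22 °C and orange at 35 °C; circles are libraries, bars the mean and SD of 3. LHC-II falls from 100% in control to 52.6% of the control mean under all 3 stresses, while the genes of the NADH dehydrogenase-like complex (NDH) and cyclic flow sum to 92.5%, in deposited TPM that were not rescaled.

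More members fell than rose in each of the 7 comparisons with control. Salt lowered 42 of the 105 tested members and raised 3, where 11% of all genes tested were called (6.41% lower and 4.54% higher). Mannitol lowered 69 and raised 2, against 23.6% of all genes called (11.4% lower and 12.2% higher). Salt plus mannitol lowered 82 and raised 5, against 32.6% (17.2% lower and 15.4% higher). In heat 64 members fell and 16 rose, against 62.6% of all genes (30.9% lower and 31.7% higher). The part of the members called in heat, 76.2%, thus lay nearer to that of all genes than in the unheated groups, and the difference was mostly in direction. Salt plus heat lowered 67 and raised 11, against 63.2% (31.5% lower and 31.7% higher). Mannitol plus heat lowered 75 and raised 11, against 64.7% (32% lower and 32.6% higher), and all 3 stresses 81 and 11, against 65.7% (32.7% lower and 33% higher). The 7 comparisons share the control libraries and are not independent. Median log2 fold changes over the 105 members ran from -0.25 in salt through -0.31 in mannitol, -0.37 in heat, -0.38 in salt plus heat, -0.42 in salt plus mannitol and -0.50 in mannitol plus heat to -0.63 under all 3 stresses, where the medians over all genes lay between -0.01 and 0.00. With library totals in place of TMM factors those all-gene medians moved up by as much as 0.17, and salt then lowered 26 members and raised 6.

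**Figure D2:**
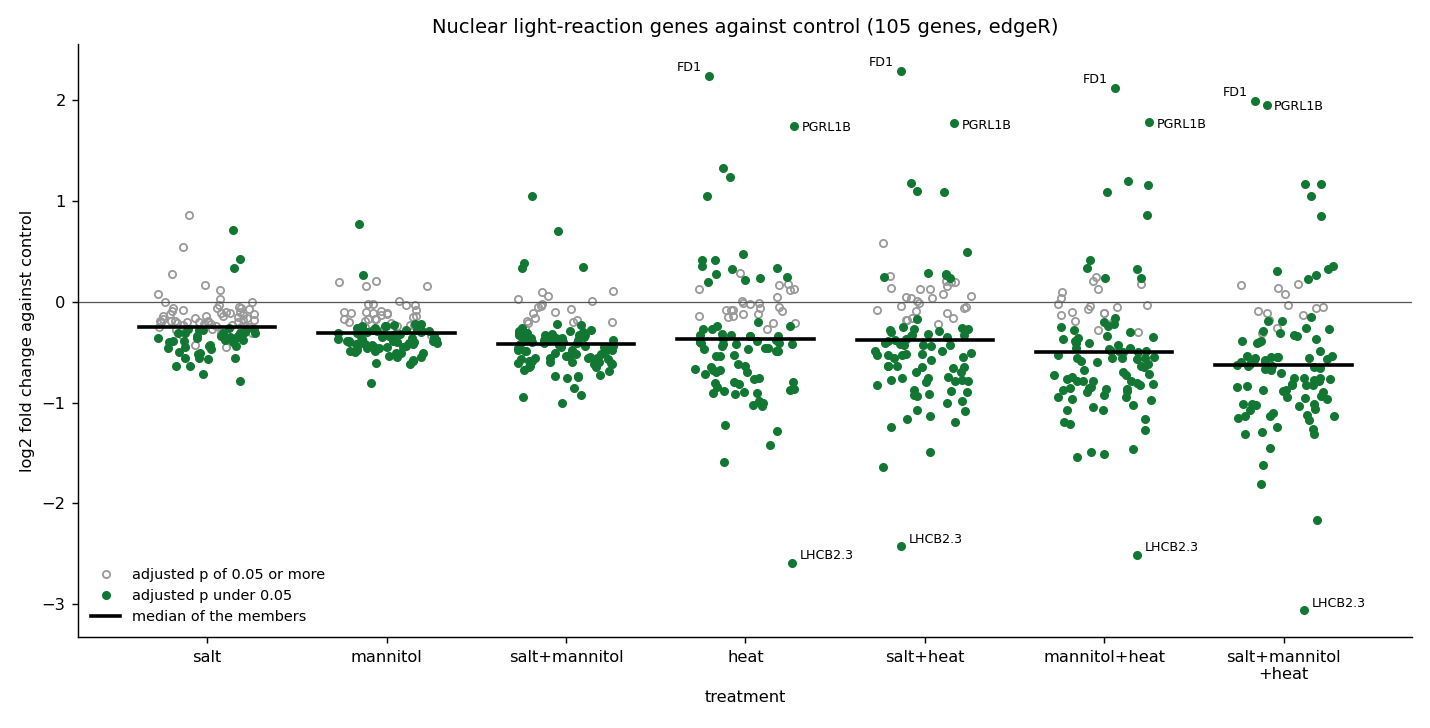
Log2 fold change against control (vertical axis) of the 105 tested nuclear light-reaction genes under each treatment (horizontal axis); filled green points passed an adjusted p of 0.05, open grey points did not, and black lines are medians over the genes. The median runs from -0.25 in salt to -0.63 under all 3 stresses, with FD1 and PGRL1B far above 0 and LHCB2.3 far below it in every heated group.

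Heat split the photosystem II antenna by gene copy. LHCB1 and LHCB2 form the major trimeric antenna and LHCB4, LHCB5 and LHCB6 the minor monomeric one. Of the 15 LHC-II genes 11 fell and none rose in heat, with a median log2 fold change of -0.44, while with library totals 10 fell and 1 rose. Among all genes tested, 30.9% were called lower in heat and 31.7% higher. LHCB2.3 (AT3G27690) stood at 2198, 2650.3 and 2686 TPM in control and at 487, 314 and 435 TPM in heat, with no overlap, which was the largest fall of any member (log2 -2.59 ± 0.14, adjusted p = 2.58e-13, edgeR). The other LHCB2 genes fell less, LHCB2.1 by 0.89 and LHCB2.2 by 0.67 on the log2 scale. LHCB2.3 therefore made up 21.8% ± 0.78 of the LHCB2 level in control and 7.22% ± 1.21 in heat, while LHCB2.2 went from 47.2% to 59.4%.

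Among the 5 LHCB1 genes the copies moved apart as well. CAB1 (LHCB1.3) went from 22927, 24427 and 26173 TPM in control to 12162, 11722 and 11882 TPM in heat (log2 -1.02 ± 0.07, adjusted p = 7.34e-11, edgeR). LHB1B1 (LHCB1.4, AT2G34430) went from 6627, 7457 and 7895 TPM to 3579.9, 2981 and 4024 TPM (log2 -1.04 ± 0.17, adjusted p = 2.36e-05, edgeR). Neither gene's heated libraries reached its controls. LHB1B2 (LHCB1.5), which lies head to head with LHB1B1 on chromosome 2, stood at 10747, 11798 and 11907 TPM in control and at 12324, 13080.1 and 13153 TPM in heat, and was not called (log2 0.18 ± 0.08, adjusted p = 0.0679, edgeR). In heat LHB1B2 rather than CAB1 was the most abundant LHCB1 gene: its part of the LHCB1 level was 18.9% ± 0.57 in control and 30.7% ± 1.43 in heat, and that of CAB1 40.3% ± 0.31 and 28.5% ± 0.68. CAB2 and CAB3, the remaining copies, fell by 0.44 and 0.27 on the log2 scale. These copies are so alike that 2.41% to 7.66% of the 100-base windows in the LHCB1 coding sequences occur unchanged in another copy. The same holds for 8.89% of windows in LHCB2.1 and 18.5% in LHCB2.2, but for none in LHCB2.3 or in the other families described here, so levels of single LHCB1 copies and of LHCB2.1 and LHCB2.2 are less certain than their sums.

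The 250 bases upstream of the annotated start are shown for antenna copies that differed in heat, as lower case with motif matches in capitals, 5′ to 3′ on the strand of the gene (RefSeq, TAIR10.1).
LHCB2.3 (chr3:10255656-10255905, forward strand): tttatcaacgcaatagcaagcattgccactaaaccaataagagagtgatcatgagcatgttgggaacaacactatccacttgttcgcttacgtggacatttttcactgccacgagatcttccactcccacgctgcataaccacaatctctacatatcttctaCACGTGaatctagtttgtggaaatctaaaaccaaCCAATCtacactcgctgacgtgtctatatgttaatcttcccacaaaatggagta
CAB1 (chr1:10477635-10477884, forward strand): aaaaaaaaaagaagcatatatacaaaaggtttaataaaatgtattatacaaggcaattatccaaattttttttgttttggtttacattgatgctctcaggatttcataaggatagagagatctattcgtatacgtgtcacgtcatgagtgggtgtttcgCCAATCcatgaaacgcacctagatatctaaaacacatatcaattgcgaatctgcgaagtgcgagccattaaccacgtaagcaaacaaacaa
LHB1B1 (chr2:14524357-14524606, forward strand): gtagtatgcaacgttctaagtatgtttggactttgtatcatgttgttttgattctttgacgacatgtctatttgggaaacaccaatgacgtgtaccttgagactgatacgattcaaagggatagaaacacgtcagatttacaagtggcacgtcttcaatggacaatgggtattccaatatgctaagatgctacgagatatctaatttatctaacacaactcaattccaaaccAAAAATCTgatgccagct
LHB1B2 (chr2:14523569-14523818, reverse strand): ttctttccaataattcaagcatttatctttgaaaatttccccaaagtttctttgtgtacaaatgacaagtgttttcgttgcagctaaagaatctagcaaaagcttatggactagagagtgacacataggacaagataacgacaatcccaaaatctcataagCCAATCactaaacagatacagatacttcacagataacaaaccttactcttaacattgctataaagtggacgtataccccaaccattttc
Capitals mark CACGTG (the G-box) and CCAATC, both in LHCB2.3, CCAATC alone in CAB1 and in LHB1B2, and AAAAATCT (a CCA1-binding sequence) in LHB1B1. The CCAATC match lies 91 bases before the start in CAB1, which fell, and 89 bases before it in LHB1B2, which was not called. A match is a description of the letters and shows no binding.

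Among the remaining antenna genes of photosystem II LHCB3, the other trimer protein, fell by 0.54 and LHCB5 by 0.53 on the log2 scale. LHCB4.3, a rare LHCB4 form at 7.61 ± 0.846 TPM in control, was not called in heat (0.28 ± 0.19).

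Photosystem II subunits fell in heat for 21 genes, rose for 3 and were not called for 7, with a median of -0.40. These counts stand beside 30.9% of all genes called lower in heat and 31.7% higher. PSB28, an assembly factor, went from 171, 176 and 190.2 TPM in control to 65.3, 53.5 and 57.3 TPM in heat (log2 -1.59 ± 0.16, adjusted p = 4.8e-08, edgeR). PPD6 and PPD1, PsbP-domain proteins of the lumen, fell by 1.28 and 1.22 on the log2 scale. PSBO1 and PSBP-1, the main genes for the extrinsic proteins that shield the water-splitting cluster, fell by less, 0.33 and 0.40. PSBR, the most abundant gene of this role, rose from 8619.9, 8953 and 9199.8 TPM to 9598, 11369 and 10649 TPM (log2 0.25 ± 0.07, adjusted p = 0.00245, edgeR). LPA19, an assembly factor, rose most in this role (log2 0.41 ± 0.12).

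Of the 7 LHC-I genes tested 5 fell in heat and none rose, while with library totals 4 fell and 1 rose. The shares of all genes called in heat were 30.9% lower and 31.7% higher. LHCA1, the most abundant, stood at 8619, 9549 and 10295 TPM in control and 8836, 8600.3 and 9169.5 TPM in heat, with overlapping groups and no call (log2 -0.08 ± 0.09). LHCA4, its partner in the antenna of photosystem I, fell by 0.46 on the log2 scale, and Lhca5, found in small amounts, fell most in this role. Lhca5 and Lhca6 join the NADH dehydrogenase-like complex to photosystem I, and Lhca5 went from 181, 177 and 199.8 TPM to 67.1, 71 and 68.3 TPM (log2 -1.42 ± 0.08, adjusted p = 4.37e-13, edgeR). Lhca6 fell by 0.98 on the log2 scale. OHP2, a light-harvesting-like protein needed to build photosystems, fell by 0.88, and OHP, its partner binned with photosystem II, by 0.92.

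Of the 14 photosystem I genes 10 fell and 2 rose in heat, with a median of -0.35, beside 30.9% of all genes lower and 31.7% higher. PSAO, the most abundant, went from 7665, 8102 and 8596 TPM to 5006, 4912 and 5062 TPM (log2 -0.69 ± 0.08). PSI-P, also known as CURT1B and a protein that curves thylakoid membranes, fell most in this role (log2 -0.82 ± 0.10, adjusted p = 2.44e-07, edgeR). PSAE-2 rose by 0.22 and its copy PSAE-1 fell by 0.23 on the log2 scale, so that PSAE-2 held 26.3% ± 0.33 of the PSAE level in control and 32.8% ± 0.48 in heat. PSAE-1 is overlapped over 436 bases by an antisense gene, AT4G28755, listed at 2506.9 ± 160.4 TPM in control and 2032.9 ± 147.9 TPM in heat. The kit is not stated to keep the strand, so the PSAE-1 level and these shares are less certain. APO4, a rare member, rose from 2.51 ± 0.179 to 5.14 ± 0.0956 TPM (SD, n = 3; log2 1.05 ± 0.13).

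The cytochrome b6/f group holds 3 genes. PETC, the Rieske iron-sulfur subunit, fell by 0.53 and CCB3, which helps to attach haem to the complex, by 0.91 on the log2 scale. AT2G26500, deposited as the PetM subunit and the most abundant of them, was not called (0.13 ± 0.09), but counted as higher with library totals.

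Electron carriers held the largest rise of any member. FD1 (AT1G10960), the minor leaf ferredoxin, stood at 236, 217 and 279 TPM in control and at 1141, 1127 and 1162 TPM in heat, a 4.72-fold rise with no overlap (log2 2.24 ± 0.09, adjusted p = 6.9e-16, edgeR). FED A (FD2, AT1G60950), the major leaf ferredoxin, went from 3476, 3315 and 3746 TPM to 1763, 2006 and 1799 TPM (log2 -0.91 ± 0.10, adjusted p = 5.84e-08, edgeR). The FD1 part of their joint level was 6.48% ± 0.41 in control and 38.2% ± 1.90 in heat. It stayed between 6.19% and 7.94% on average in the other unheated groups and between 40.8% and 42.7% in the other heated ones. The coding sequences of this pair share no 100-base window. The annotated start of FD1 lies within AT1G10950, a gene on the same strand that overlaps it by 78 bases and whose own level was 46.2 ± 1.82 TPM in control and 39.3 ± 1.54 TPM in heat, so the upstream bases are not shown.

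DRT112, the major plastocyanin, rose in heat from 4961, 5289 and 5949 TPM to 6584, 7083 and 6906 TPM (log2 0.36 ± 0.09, adjusted p = 0.00129, edgeR), and its minor copy PETE1 fell by 0.34 on the log2 scale. Of the FNR genes, FNR2 fell by 0.39 and FNR1 was not called (-0.09 ± 0.07). AT4G32590, deposited as ferredoxin-related, rose from 108, 120.2 and 128 TPM to 267, 324 and 296 TPM (log2 1.32 ± 0.08). HY2, a ferredoxin-dependent enzyme that makes the chromophore of phytochrome, fell by 1.005. AT5G07950, a protein of unknown function in this bin, rose by 1.24 from a level of 3.12 ± 0.745 TPM.

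**Figure D3:**
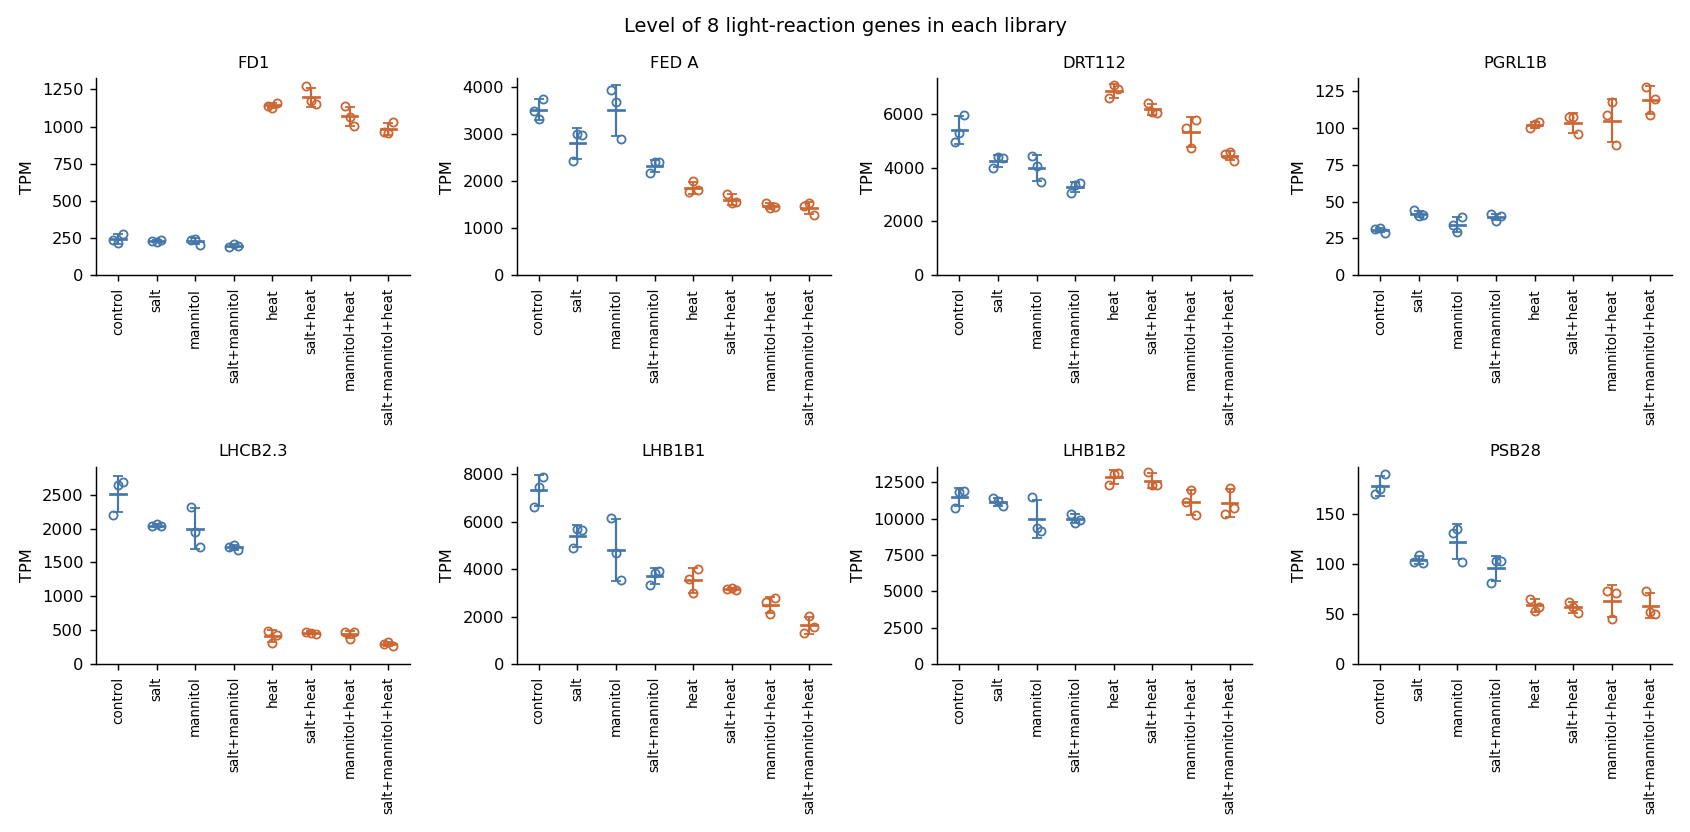
TPM (vertical axes, each from 0) of 8 light-reaction genes in each library by treatment group (horizontal axis), blue at 22 °C and orange at 35 °C; circles are libraries, bars the mean and SD of 3. FD1 and PGRL1B are higher and LHCB2.3 lower in all 12 heated libraries than in any unheated one, while LHB1B2 in heat (12324 to 13153 TPM) lies just above its controls (10747 to 11907 TPM).

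Genes of the ATP synthase role went both ways in heat, and those that rose were ATPC2 and genes only called related to the enzyme. ATPD (delta) fell by 0.75, ATPC1 (gamma) by 0.71 and PDE334 (a peripheral-stalk subunit) by 0.42 on the log2 scale. AT4G00895 and AT2G31040, which the deposited annotation calls related to ATP synthase, rose by 0.41 and 0.34. ATPC2, the other gamma gene, rose by 0.33, yet at 3.44 TPM over all libraries it held under 1% of the gamma level in every group.

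In cyclic flow of the PGRL1 pair the minor copy rose and the major copy fell, as in the ferredoxins. PGRL1B (AT4G11960) stood at 31.6, 31.8 and 28.9 TPM in control and at 99.9, 103 and 104 TPM in heat, 3.36-fold higher with no overlap (log2 1.75 ± 0.10, adjusted p = 1.2e-12, edgeR). PGRL1A (listed as PGR5-LIKE A, AT4G22890) went from 343, 387 and 432 TPM to 294, 279 and 289 TPM (log2 -0.41 ± 0.09, adjusted p = 0.000403, edgeR). The minor copy thus held 7.43% ± 1.08 of the joint level in control and 26.2% ± 0.78 in heat, and 31.1% ± 1.14 under all 3 stresses. PGR5, their partner protein, was not called in heat (-0.14 ± 0.08). The 250 bases upstream of both PGRL1 genes are shown in the same manner, because the copies moved in opposite directions.
PGRL1B (chr4:7177889-7178138, reverse strand): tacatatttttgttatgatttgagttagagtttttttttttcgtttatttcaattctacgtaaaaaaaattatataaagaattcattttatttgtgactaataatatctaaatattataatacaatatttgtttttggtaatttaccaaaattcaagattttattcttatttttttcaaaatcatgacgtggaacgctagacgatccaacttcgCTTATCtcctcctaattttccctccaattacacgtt
PGRL1A (chr4:12006736-12006985, forward strand): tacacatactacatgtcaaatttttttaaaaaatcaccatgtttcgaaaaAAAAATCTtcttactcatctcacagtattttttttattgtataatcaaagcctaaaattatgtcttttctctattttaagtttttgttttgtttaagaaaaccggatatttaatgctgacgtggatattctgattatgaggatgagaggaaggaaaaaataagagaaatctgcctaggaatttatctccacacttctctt
Capitals mark CTTATC in PGRL1B, the reverse complement of GATAAG (the I-box), and AAAAATCT in PGRL1A.

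Subunits of the NADH dehydrogenase-like complex went both ways in heat. NdhO rose from 186, 216 and 206 TPM to 277, 262 and 300.2 TPM (log2 0.47 ± 0.09, adjusted p = 4.44e-05, edgeR). NdhL fell by 0.47, PnsB2 by 0.81 and CRR3, a factor needed for the complex, by 0.69 on the log2 scale. PIFI, which affects chlororespiration, rose by 0.28. Over this role 3 genes rose, 5 fell and 4 were not called, where 62.6% of all genes were called (30.9% lower and 31.7% higher). The part called in this role was thus near that of all genes. Among the 3 kinase genes STN7, which phosphorylates LHC-II in state transitions, fell by 0.64 and AT4G02630, a protein kinase of the deposited annotation, by 0.80.

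**Figure D4:**
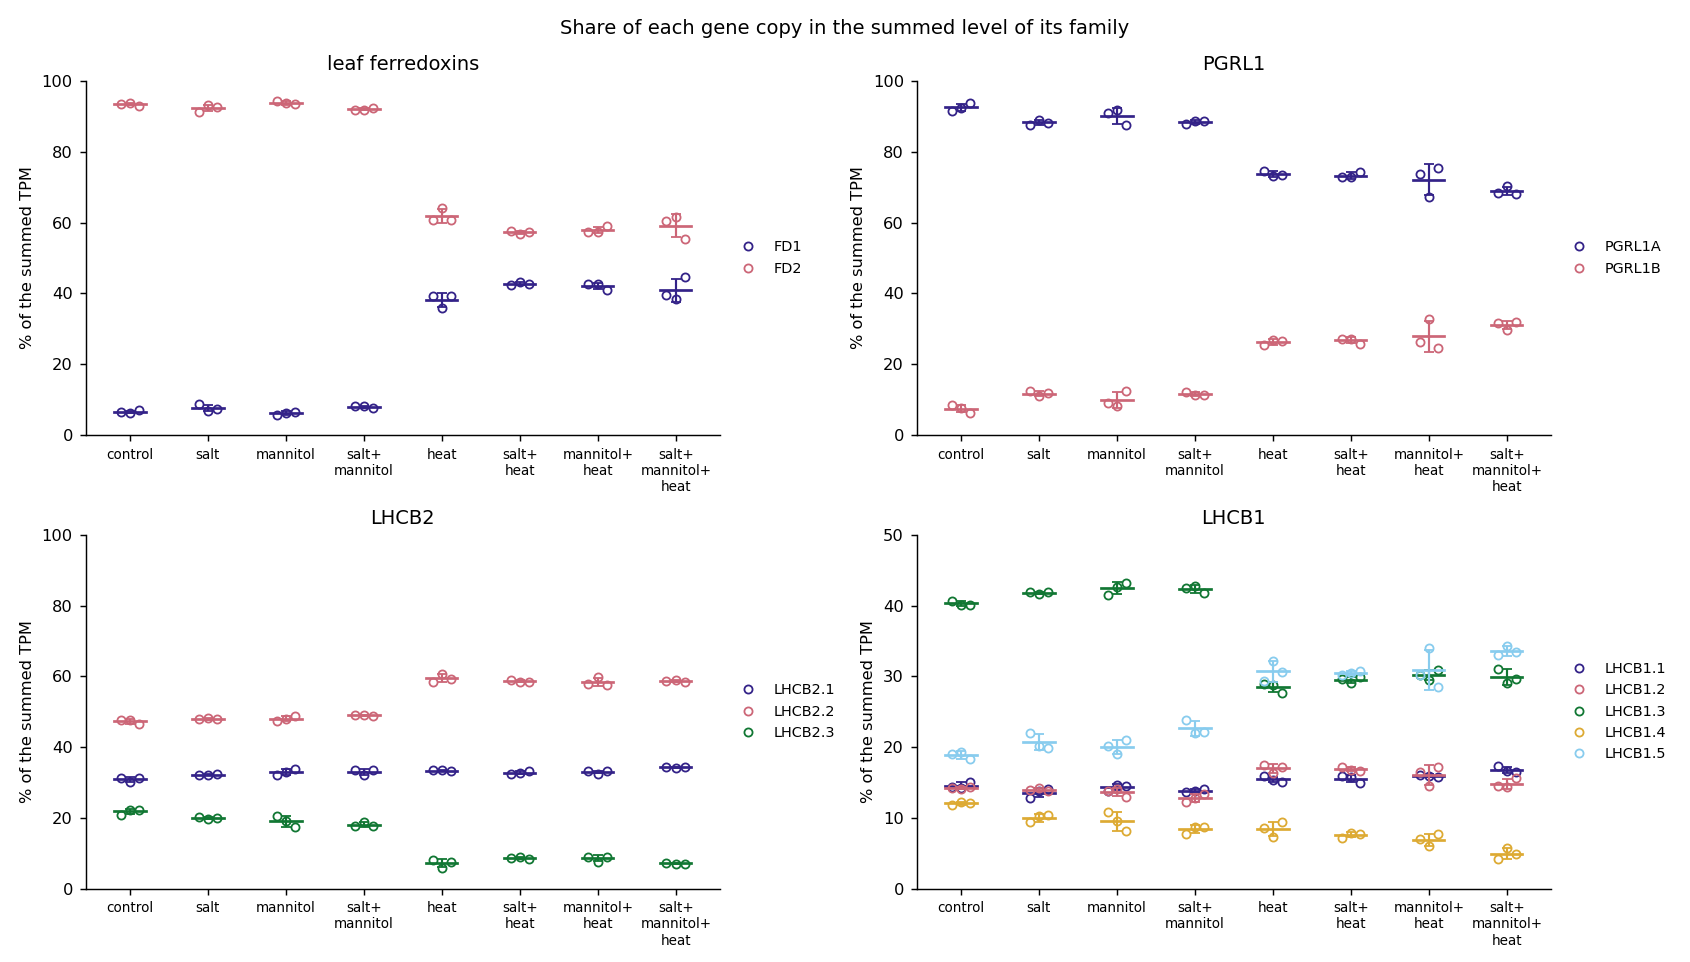
Share of each gene copy in the summed TPM of its family (vertical axis, in %; the LHCB1 panel ends at 50) for the leaf ferredoxins, PGRL1, LHCB2 and LHCB1 in each library by treatment group (horizontal axis); circles are libraries, bars the mean and SD of 3. FD1 goes from 6.48% in control to 38.2% in heat, PGRL1B from 7.43% to 26.2% and LHCB1.5 (LHB1B2) from 18.9% to 30.7%, while LHCB2.3 goes from 21.8% to 7.22%.

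In salt at 22 °C 42.9% of the tested members were called beside 11% of all genes. Photosystem II subunits fell for 15 genes and rose for 1, and the median over LHC-II was -0.20 with 3 of 15 genes lower. PSB28 fell from 171, 176 and 190.2 TPM to 103, 109 and 101 TPM (log2 -0.79 ± 0.16, adjusted p = 0.00342, edgeR), with no overlap. PQL3 and PnsL3, PsbQ-like proteins of the lumen, fell by 0.71 and 0.64 on the log2 scale, and PnsB2 by 0.56. LHCA1, the LHC-I gene of highest mean level over all libraries, fell from 8619, 9549 and 10295 TPM to 7002, 6968 and 6993 TPM (log2 -0.45 ± 0.09). In salt LHCA4 stood higher than LHCA1, at 7615.6 ± 195.3 TPM. The FNR pair changed in ratio: FNR2 went from 583, 661 and 763 TPM to 437, 431 and 431 TPM (log2 -0.64 ± 0.10, adjusted p = 0.000517, edgeR), whereas FNR1 stood at 774, 818 and 879 TPM and 875, 835 and 819.5 TPM, overlapping and not called. FNR1 held 55.3% ± 1.77 of the FNR level in control and 66.1% ± 0.59 in salt.

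The 3 members that rose in salt were PSBP-2, PGRL1B and IM. PSBP-2, a minor relative of the extrinsic protein gene PSBP-1, went from 24.1, 29.7 and 27.3 TPM to 47.1, 45 and 42.2 TPM (log2 0.71 ± 0.13, adjusted p = 0.00138, edgeR). IM, the plastid terminal oxidase that passes electrons from plastoquinol to oxygen, went from 28.7, 27 and 26.8 TPM to 35, 33.9 and 35.6 TPM (log2 0.33 ± 0.07). PGRL1B rose by 0.42 on the log2 scale. The salt count moved with single libraries. It was 45 with all of them, 19 without control replicate 3, 25 without salt replicate 1, 28 without control replicate 2 and 29 without salt replicate 3, and the call of PQL3 was lost without control replicate 3 (log2 -0.62, adjusted p = 0.0536, edgeR). Without the 4 libraries of high organelle share 23 were called. The shares of all genes called in these reduced fits are not given here, so the members were not compared with other genes in this respect.

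Mannitol lowered 27 of the 31 photosystem II genes, 9 of the 14 photosystem I genes, 8 of the 15 LHC-II genes and 6 of the 7 LHC-I genes tested. Of all genes tested, 11.4% were called lower in mannitol and 12.2% higher. AT1G02180, deposited as ferredoxin-related, fell most, from 5.04, 7.61 and 7.96 TPM to 4.14, 4.68 and 3.04 TPM (log2 -0.80 ± 0.16, adjusted p = 0.000958, edgeR). LHB1B1 stood at 6627, 7457 and 7895 TPM in control and 6158, 4696 and 3536 TPM in mannitol, with the lowest value in replicate 3 (log2 -0.61 ± 0.17), and the call was lost without that library (log2 -0.43, adjusted p = 0.0803, edgeR) or without control replicate 3 (log2 -0.56, adjusted p = 0.0503, edgeR). NdhL fell by 0.58, LHCA1 by 0.57 and DRT112 by 0.45 on the log2 scale. FED A, which salt lowered by 0.34, stood at 3929.5, 3667 and 2895 TPM and was not called in mannitol (-0.02 ± 0.10). IM and AT5G07950 were the 2 members that rose, by 0.27 and 0.77, though IM lost its call without mannitol replicate 3 (log2 0.20, adjusted p = 0.0871, edgeR). Without mannitol replicate 3 the count of members called was 37 and without control replicate 3 it was 42, against 71 with all libraries.

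Salt and mannitol were also compared with each other, in plants that had both been watered. Mannitol plants were lower for 8 members and higher for 1, against 22.2% of all genes called (10.1% lower and 12.1% higher). PETE1 was 0.41 lower on the log2 scale in mannitol than in salt and FNR1 0.24 lower, while FED A was 0.32 higher, with overlapping groups. The FED A call was lost without mannitol replicate 1, mannitol replicate 2 or salt replicate 1 (log2 0.22 to 0.28, adjusted p = 0.106 to 0.167, edgeR), and that of FNR1 without mannitol replicate 3 (log2 -0.21, adjusted p = 0.0513, edgeR). Without the libraries of high organelle share neither was called, FED A at 0.19 (adjusted p = 0.35, edgeR) and FNR1 at -0.215 (adjusted p = 0.123, edgeR). The largest difference was that of AT4G01330, a kinase-like gene (log2 -0.73 ± 0.11, adjusted p = 4.9e-05, edgeR). Without mannitol replicate 1 the members called numbered 20, and without the libraries of high organelle share 4.

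Salt and mannitol given together lowered 27 of the 31 photosystem II genes, 12 of 14 photosystem I genes, 12 of 15 LHC-II genes, 11 of 14 other electron carriers and all 3 cytochrome b6/f genes. Of all genes tested, 17.2% were called lower under both and 15.4% higher. LHB1B1 went from 6627, 7457 and 7895 TPM to 3344, 3859.9 and 3930.1 TPM (log2 -0.999 ± 0.17, adjusted p = 0.000192, edgeR). DRT112 fell from 4961, 5289 and 5949 TPM to 3049.6, 3354 and 3415 TPM (log2 -0.76 ± 0.09), and FED A from 3476, 3315 and 3746 TPM to 2162, 2392 and 2391 TPM (log2 -0.64 ± 0.10). None of these groups overlapped. PSB28 fell by 0.92, PPD5 by 0.86, PSAN by 0.74 and LHCA1 by 0.67 on the log2 scale. FD1, so much higher in heat, fell by 0.33. Of the 5 members that rose, AT5G07950 gained 0.70, PSBP-2 0.39, PGRL1B 0.34 and IM 0.34, and the fifth was AT4G37230, a rare gene of the extrinsic-protein family at 1.43 TPM over all libraries. PSBP-2 lost its call without control replicate 1 or 3 or salt plus mannitol replicate 1 or 2 (log2 0.30 to 0.39, adjusted p = 0.0629 to 0.122, edgeR). PGRL1B lost it without control replicate 3 or salt plus mannitol replicate 1 (log2 0.31 in both, adjusted p = 0.0546 and 0.0519, edgeR).

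The combinations with heat share the temperature of the heat group and, in these comparisons, the control libraries. In salt plus heat LHCB2.3 stood at 480.2, 463 and 437 TPM (log2 -2.43 ± 0.14 against control) and in mannitol plus heat at 466, 374 and 468 TPM (log2 -2.51 ± 0.14), all below the lowest unheated library at 1688 TPM. FD1 stood at 1270.3, 1173 and 1151 TPM in salt plus heat (log2 2.29 ± 0.09) and at 1137, 1064 and 1004 TPM in mannitol plus heat (log2 2.12 ± 0.08). PGRL1B rose by 1.77 and 1.78 on the log2 scale in these groups. PSB28 fell by 1.64 and 1.49, and Lhca5 by 1.49 and 1.47. LHB1B1 had log2 fold changes of -1.196 in salt plus heat and -1.54 in mannitol plus heat. DRT112, which heat alone raised, stood at 6160.3 ± 194 TPM in salt plus heat (0.19 ± 0.09) and 5327 ± 548 TPM in mannitol plus heat (-0.02 ± 0.09), and was called in neither.

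With all 3 stresses LHC-II genes fell for 13 of 15 genes and LHC-I for 7 of 7 tested. Of all genes tested, 32.7% were called lower under all 3 stresses and 33% higher. LHCB2.3 stood at 301, 326 and 271 TPM against 2198, 2650.3 and 2686 TPM in control (log2 -3.06 ± 0.14, adjusted p = 2.65e-14, edgeR). LHB1B1 stood at 1300.5, 2032 and 1555 TPM, 4.48-fold lower than control (log2 -2.16 ± 0.18, adjusted p = 1.51e-09, edgeR), and its part of the LHCB1 level was 4.91% ± 0.79 where control had 12.0% ± 0.25. Its head-to-head neighbour LHB1B2 stood at 10304, 12132 and 10765 TPM, overlapping control and not called (-0.05 ± 0.08). PSAH2, a photosystem I subunit, fell by 1.14, ATPD by 1.15 and PPD6 by 1.80 on the log2 scale. FD1 rose by 1.99 and PGRL1B by 1.96. In the role of the NADH dehydrogenase-like complex and cyclic flow 4 genes rose and 7 fell, and with library totals 4 rose and 3 fell.

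Each heated combination was also compared with heat alone. Salt plus heat gave 0 members called by edgeR, where 1.03% of all genes were called (0.664% lower and 0.365% higher), and 5 members had an unadjusted p under 0.05. DESeq2 called 1 member. The median log2 difference was -0.04 and 68 of 105 values were negative. PSBP-2 came closest, at 18.3, 24.7 and 20.8 TPM in heat and 33.8, 33.7 and 26.9 TPM in salt plus heat, without overlap (log2 0.54 ± 0.14, adjusted p = 0.0576, edgeR).

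Mannitol plus heat lowered 21 members and raised 2 relative to heat, against 12.3% of all genes called (6.32% lower and 6% higher). LHCB4.3 fell from 8.64, 9.998 and 8.86 TPM to 4.59, 3.04 and 3.08 TPM (log2 -1.35 ± 0.20, adjusted p = 0.000337, edgeR). PSBQA, an extrinsic photosystem II protein, fell by 0.46 and DRT112 by 0.38 on the log2 scale. PSBP-2 and AT4G37230 rose. Without mannitol plus heat replicate 2 the PSBQA call was lost (log2 -0.34, adjusted p = 0.0606, edgeR), and without the libraries of high organelle share so were that of PSBQA (log2 -0.34, adjusted p = 0.0783, edgeR) and that of DRT112 (log2 -0.31, adjusted p = 0.065, edgeR). The count of 23 depended on single libraries: it was 7 without heat replicate 2, 7 without mannitol plus heat replicate 2, 12 without heat replicate 3, 13 without mannitol plus heat replicate 3, and 5 without the libraries of high organelle share.

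All 3 stresses lowered 57 members and raised 5 relative to heat, against 23.1% of all genes called (13.1% lower and 9.97% higher). LHC-II fell for 12 of 15 genes, photosystem I for 12 of 14 and photosystem II for 17 of 31. In the role of the NADH dehydrogenase-like complex and cyclic flow no gene fell and 1 rose, but that role leaves out the PnsL subunits. Of these, PnsL1 went from 138.7 ± 3.19 TPM in heat to 112.8 ± 5.13 TPM and PnsL3 from 28.55 ± 1.41 to 24.34 ± 2.25 TPM. PnsL2 stood at 46.33 ± 3.59 TPM in heat and 46.36 ± 2.91 TPM under all 3 stresses. Abundant genes made up most of the falls: 41 of the 46 members with at least 1000 TPM over all libraries were lower, 8 of 22 between 100 and 1000 TPM, and 8 of 37 under 100 TPM. LHB1B1 fell from 3579.9, 2981 and 4024 TPM in heat to 1300.5, 2032 and 1555 TPM (log2 -1.12 ± 0.17, adjusted p = 0.000151, edgeR). DRT112 fell from 6584, 7083 and 6906 TPM to 4498, 4587 and 4252 TPM (log2 -0.65 ± 0.09), PSAH2 by 0.65 and LHCA1 by 0.40 on the log2 scale. FED A fell by 0.41 and FD1 by 0.25. With library totals 38 members fell and 7 rose.

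The effect of each watering at 22 °C was set beside its effect in heated plants, which share no libraries. Across the 105 members, Pearson's r between both effects was 0.54 for salt, 0.39 for mannitol and 0.71 for salt plus mannitol (Spearman's rho 0.28, 0.26 and 0.60), given as a description over genes that are not independent. The median effect of salt was -0.25 at 22 °C and -0.04 in heat, that of mannitol -0.31 and -0.16, and that of salt plus mannitol -0.42 and -0.28. The difference between the effects was tested gene by gene. For salt it passed in 3 members, all with a higher effect in heat, where 1.4% of all genes were called (0.544% lower and 0.859% higher in heat). For mannitol it passed in 8, of which 7 were higher and 1 lower in heat, against 8.78% of all genes (5.19% lower and 3.59% higher). For salt plus mannitol it passed in 5, all higher in heat, against 5.58% (3.11% lower and 2.47% higher). The members called in either direction were 2.86%, 7.62% and 4.76% of those tested. For mannitol and for salt plus mannitol this share over both directions was not above that of all genes. NdhL stood at 257, 309 and 292 TPM in control and 218, 186 and 172 TPM in mannitol, but at 215, 186 and 214 TPM in heat and 218, 218 and 204 TPM in mannitol plus heat, where the groups overlapped (difference of effects 0.63 ± 0.13 on the log2 scale, adjusted p = 0.00461, edgeR). PSB28 fell under salt plus mannitol at 22 °C and stood at 65.3, 53.5 and 57.3 TPM in heat and 72.7, 52.2 and 50.2 TPM under all 3 stresses (difference 0.90 ± 0.23, adjusted p = 0.0255, edgeR). The NdhL difference under mannitol was called in all 12 fits that leave out 1 library (highest adjusted p = 0.0193, edgeR), whereas that of PSB28 was lost in 5 of 12, namely without control replicate 2 or 3, heat replicate 2, salt plus mannitol replicate 1 or all-stress replicate 1. Counts of members called went from 0 to 7 for salt, 1 to 15 for mannitol and 0 to 6 for salt plus mannitol over such fits, reaching 0 or 1 without heat replicate 2 in each case.

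**Figure D5:**
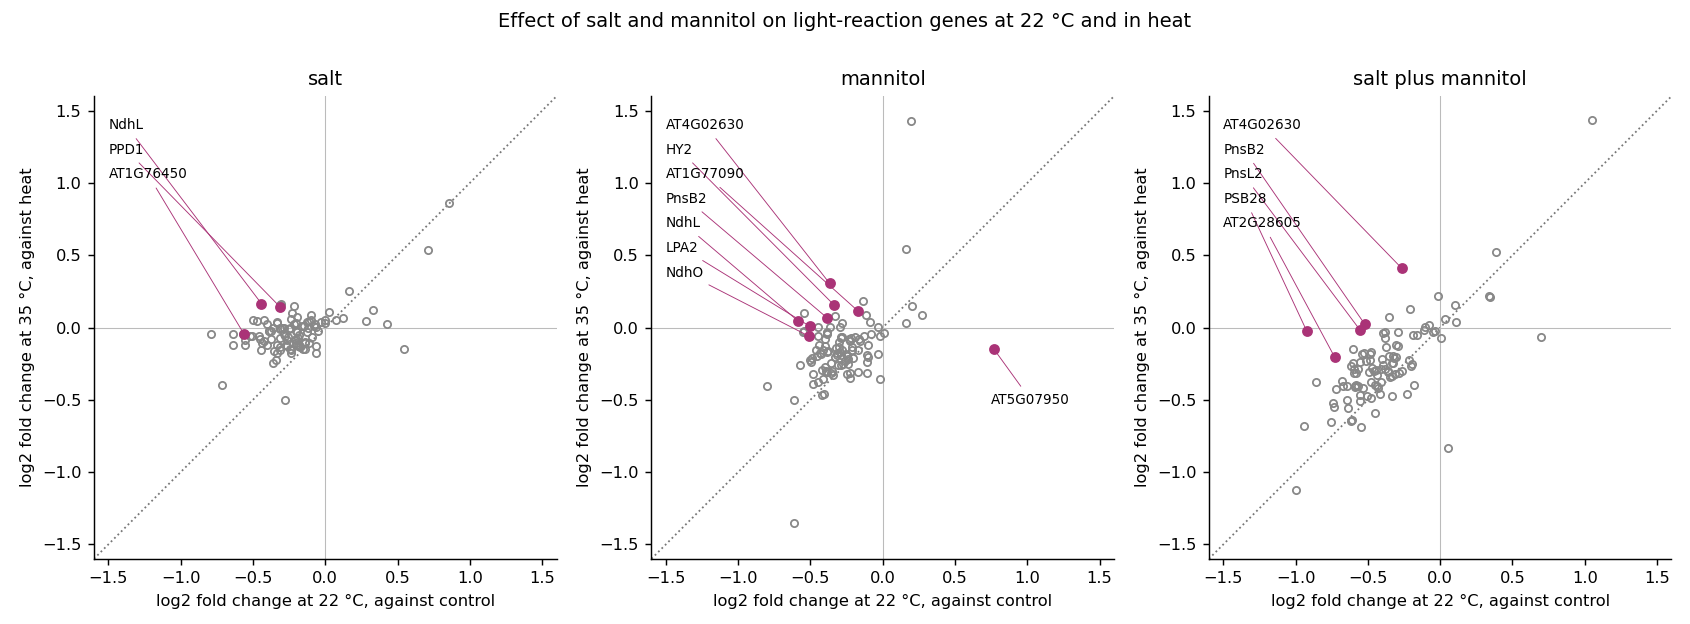
Log2 fold change of the 105 members under salt, mannitol or both at 22 °C against control (horizontal axis) and at 35 °C against heat (vertical axis); the dotted line marks equal effects and filled, named points are those whose difference of effects passed an adjusted p of 0.05. In the salt panel the points lie near 0 on the vertical axis (median -0.04), and in the salt plus mannitol panel they lie lower (median -0.28).

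Genes that serve the light reactions without being members, 25 regulators, assembly factors and proteases, were read beside them. In heat 17 fell and 3 rose, where 62.6% of all genes were called, with a median log2 fold change of -0.41 beside -0.37 for the members. VDE1 and ABA1, the enzymes of the xanthophyll cycle, went from 44.2, 49.3 and 58.8 to 22.1, 21.1 and 23 TPM and from 144, 178 and 188 to 76.8, 66.4 and 74 TPM (log2 -1.19 ± 0.10 and -1.21 ± 0.10). The sigma factors SIG2 and SIG5, which direct the chloroplast RNA polymerase, fell by 0.92 and 1.08 on the log2 scale. GLK1 and GLK2, transcription factors that switch on nuclear photosynthesis genes, fell by 0.43 and 0.55. FTSH8, a subunit of the protease that degrades damaged photosystem II protein, rose by 0.62. In salt 6 of the 25 fell and 1 rose, where 11% of all genes were called, and with library totals 2 fell and 2 rose. In mannitol the counts were likewise 6 and 1, beside 23.6% of all genes, and with library totals 3 and 2. Under salt plus mannitol 10 fell and 6 rose, beside 32.6% of all genes, and with library totals 9 and 8. ELIP1, an early light-induced protein related to the antenna, went from 2.92, 2.38 and 2.51 TPM in control to 12.8, 4.12 and 9.77 TPM in salt (log2 1.75 ± 0.39, adjusted p = 0.00648, edgeR) and 15.9, 10.7 and 9.73 TPM in salt plus mannitol (log2 2.19 ± 0.38).

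All 106 members were found in RefSeq, 37 on chromosome 1, 17 on chromosome 2, 15 on chromosome 3, 23 on chromosome 4 and 14 on chromosome 5. In the 250 bases before the start, on either strand, CCAATC occurred in 18.9% of members and 10.2% of all 27443 genes, and within the members in 7 of 15 LHC-II and 4 of 8 LHC-I genes but in none of the 14 photosystem I genes. CACGTG occurred in 16.98% of members and 6.49% of all genes, GATAAG in 21.7% and 12.3%, and AAAAATCT in 12.3% and 6.69%. The evening element AAAATATCT, which does not contain AAAAATCT, occurred in 1.89% and 2.36%. Of the heat shock element forms, GAANNTTC occurred in 4.72% of members and 9.55% of all genes and TTCNNGAA in 10.4% and 7.68%. No test was made of these shares. An annotated antisense gene overlapped 38 members and a same-strand gene 3. The kit is not stated to keep the strand, so reads of such pairs cannot be told apart, as for PSAG, whose antisense partner AT1G55673 was listed at 3499.5 ± 253.5 TPM in control.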

How the data were processed

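Estimated counts per gene were deposited by the authors as one series table for the 24 libraries, beside values labelled TPM, a coverage signal per transcript length, and the q-values of their own comparisons. Quantification used kallisto 0.45.1 and sleuth 0.30.0, with CASAVA (no version named), per the submitters' processing notes. The deposited counts had been multiplied by a constant per library, 0.797 to 1.25 for 1 read in the values themselves. After dividing it out, 94.2% to 95.5% of values under 50 reads were whole within 0.001, and all were rounded to whole numbers. The deposited TPM summed to 0.920 to 1.12 M per library and were used for levels and shares only. Reads were 100 bases, paired, from a TruSeq kit not stated to keep strand, with 12 libraries per lane, per the labels' protocols. Library totals of 12.5 to 19.5 M reads limit precision most for genes of few reads.

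All 24 libraries entered 1 fit in edgeR 4.0.16 (R 4.3.3, limma 3.58.1): filterByExpr, TMM factors, robust quasi-likelihood F tests, and Benjamini-Hochberg adjustment over the 20027 genes kept, with a threshold of 0.05. A treatment was compared with control, heated combinations also with heat, mannitol with salt, and the effect of each watering in heat with that at 22 °C by a difference of contrasts. Alternatives were DESeq2 1.42.0, its size factors in edgeR, library totals alone, no filter on low genes, a replicate block, leaving out organelle genes, leaving out 4 libraries of high organelle share, and leaving out each library in turn. The fits were also run on simulated counts with the same spread for all genes, to check that simulated fold changes were recovered. Those counts lack the uneven spread among replicates of the real libraries.

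Members came from the deposited MapMan bins. Named genes are, per comparison, the largest changes overall and within each role and the most abundant gene of each role, by a written rule. FED A, PGRL1A, LHB1B2 and other copies of a named gene, genes followed from one comparison into another, and the antisense partners of PSAG and PSAE-1 were chosen after values were seen. The members, gene lists and rule were chosen with earlier results of these data known. Sequences and positions are RefSeq's (TAIR10.1); the deposited coordinates of 26245 of 26643 genes (98.51%), and of all 106 members, fall within the gene of the same ID there.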

Additional observations from a re-analysis of the deposited data

Results flagged for a closer look

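For 16 pairs of a member and a watering, the effect in heated plants differed from that at 22 °C in a test of the difference itself (edgeR, adjusted p under 0.05 over all genes), and values are differences of log2 fold changes, positive where the effect was less negative or more positive in heat. For salt they were NdhL 0.61 (adjusted p = 0.025), the thylakoid lumen gene AT1G76450 0.52 (adjusted p = 0.0416) and PPD1 0.46 (adjusted p = 0.0444). For mannitol the subunits of the NADH dehydrogenase-like complex NdhL, PnsB2 and NdhO gave 0.63 (adjusted p = 0.00461), 0.45 (adjusted p = 0.0424) and 0.45 (adjusted p = 0.0248). The mannitol differences further held HY2 at 0.50 (adjusted p = 0.037), the kinase gene AT4G02630 at 0.67 (adjusted p = 0.0292), the photosystem II assembly factor LPA2 at 0.51 (adjusted p = 0.0289) and AT1G77090 at 0.29 (adjusted p = 0.0471). AT5G07950 was the 1 negative difference, -0.92 (adjusted p = 0.0194). For salt plus mannitol PnsL2 and PnsB2 both gave 0.54 (adjusted p = 0.0395 and 0.0228), AT2G28605 0.53 (adjusted p = 0.0424), AT4G02630 0.68 (adjusted p = 0.0352) and PSB28 0.90 (adjusted p = 0.0255).

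The members called were 2.86% of those tested for salt, 7.62% for mannitol and 4.76% for salt plus mannitol, beside 1.4%, 8.78% and 5.58% of all genes. Over both directions together, the shares for mannitol and salt plus mannitol lay below those of all genes, and that for salt lay above. By direction, all of the 16 differences but that of AT5G07950 under mannitol were higher in heat. Of all genes, 3.59% were higher and 5.19% lower for mannitol, and 2.47% and 3.11% for salt plus mannitol. For salt 0.859% were higher and 0.544% lower. Whether the direction is particular to the members was not tested. Of the 16, NdhL under mannitol was called in all 12 fits that leave out 1 library. The others lost their call in 4 to 10 of the 12 fits, with highest adjusted p-values between 0.0671 for AT5G07950 and 0.151 for PPD1 (edgeR). Salt and mannitol groups were watered at both temperatures, while control and heat groups are not recorded as watered.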

How the results depend on the processing

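Counts of members called against control kept within 1.5 times of their value under DESeq2, its size factors, library totals, no low filter and the replicate block. Replicate numbers did not pair the libraries: deviations of same-numbered libraries correlated between -0.334 and 0.282, 21 of 84 pairs exceeded 0.1, and 10 of 24 libraries correlated best with their own number. With the replicate block, members called numbered 42 for salt, 70 for mannitol, 80 for heat, 86 for salt plus mannitol, 76 for salt plus heat, 87 for mannitol plus heat, and 90 with all 3. Against heat the block gave 1 for salt, 20 for mannitol and 58 for both, and 10 for mannitol against salt. For differences of effects it gave 1, 7 and 5. For salt plus heat against heat, DESeq2 and library totals gave 1 in place of 0. For the salt difference of effects, DESeq2 gave 9 in place of 3, and library totals and no low filter gave 1. Without the libraries of high organelle share the count was 23 for salt, 5 for mannitol plus heat against heat, 4 for mannitol against salt, and 1, 3 and 1 for the differences of effects of salt, mannitol and both.

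Leaving out 1 library gave 19 to 45 members for salt, 37 to 78 for mannitol, 73 to 79 for heat, 77 to 87 for salt plus mannitol, 73 to 79 for salt plus heat, 82 to 83 for mannitol plus heat, and 86 to 90 with all 3. Relative to heat it gave 0 to 1, 7 to 21 and 44 to 57, for mannitol against salt 7 to 20, and for the differences of effects 0 to 7, 1 to 15 and 0 to 6. The cause was not tested. Shares of all genes called in these reduced fits are not given here, so whether calls of other genes moved as much was not compared. Depth limits the members of few reads, and shared sequence limits single LHCB1 copies, LHCB2.1 and LHCB2.2.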

Other observations

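The authors' deposited table gives q-values of its own for the comparisons with control. At a q-value under 0.05 it lists 46 of 105 members for salt, 19 of 106 for mannitol, 101 of 105 for heat and 92 of 105 for salt plus mannitol, beside 8.29%, 13.05%, 77.94% and 35.85% of all genes with a value. The authors' deposited table further lists 101 of 106 for salt plus heat, 98 of 106 for mannitol plus heat and 101 of 105 for all 3 stresses, beside 84.09%, 82.69% and 86.88% of all genes with a value. For mannitol, edgeR on the recovered reads called 71 of 105 with all libraries and 37 without mannitol replicate 3. How those q-values treat the spread within mannitol was not tested.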
